A study of Mus musculus with 18 samples.

Results

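The set described here is a group of integrin subunit genes of fibroblasts: Itga5, Itgav, Itga8, Itgb3, Itgb5, Itgb1, Itga1, Itga6 and Itga11. The 9 genes were chosen by name. Probe sets that name several genes were left out, and all others annotated to the 9 genes were taken. This gave 27 of the 45101 probe sets of the array. They belong to 8 of the 9 genes. Itga11 is not analysed here. Of the 27 probe sets, 23 reached a log2 value of 5 (the dim level) in at least 2 of the 18 arrays. All 8 genes were thereby among the 10078 genes measured.

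RNA was taken from primary mouse embryonic fibroblasts, cells grown from minced fetuses of embryonic day 12.5 to 14.5 after the head, liver and blood clots were taken out. The cells were homozygous or heterozygous for a mutant that the submitters describe as constitutively active, or wild type (wt). The series title names a point mutation in TGFBR1, the type I receptor of TGF-beta, while the design text calls the animals TGFb1 mutants. Cells of each genotype stayed untreated or were exposed to TGFb1 at 5 ng/mL, lasting 4 h or 24 h, with 2 arrays for each of the 9 groups. No culture time is given for the untreated cells, so time in culture and TGFb1 cannot be told apart.

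Integrins are receptors made of an alpha and a beta chain that link the matrix outside a cell to the actin cytoskeleton inside it. The alpha chain largely sets which ligand is bound: the alpha 5, alpha v and alpha 8 chains bind the RGD motif of fibronectin and related proteins, alpha 1 and alpha 11 bind collagens, and alpha 6 binds laminins. Beta 1 pairs with many alpha chains, whereas beta 3 and beta 5 pair with alpha v. In fibroblasts these receptors carry adhesion and traction, and alpha v integrins can release TGF-beta from its latent complex.

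The arrays carried the markers of the cell type on the labels. All 10 fibroblast markers, such as Col1a1 and Pdgfrb, were measured, and their summed linear intensity was 184192 to 259402 per array. The mean of this sum was lowest at 4 h in each genotype, for example 191407 and 208802 in homozygous cells at 4 h, against 255115 and 259402 in untreated homozygous cells. Of 8 endothelial markers only Emcn was measured, and 4 of 7 epithelial, 5 of 9 skeletal muscle and 2 of 6 cartilage markers were. Cdh1, Krt5, Krt14, Myod1, Myf5 and Acan were among those not measured, while Epcam, Krt8, Myog, Myh3, Chrna1 and Sox9 were measured. Epcam had log2 levels of 5.27 to 5.65, Myh3 of 4.96 to 8.81 and Sox9 of 5.78 to 7.91. Among those measured, the highest array reached a log2 level of 11.76 for Krt18, 10.08 for Krt19, 10.25 for Des and 11.73 for Col2a1. The summed intensity of the 4 epithelial markers in homozygous cells was 1437 and 1148 untreated, 3628 and 2505 at 4 h, and 1519 and 1362 at 24 h. In heterozygous cells that sum was 2145 and 1369, 4018 and 3204, and 2441 and 1314 at those times, and in wt cells 906 and 2243, 3185 and 2047, and 1764 and 655. The epithelial sum was thus highest at 4 h in both mutants, as Itga5, Itgb3 and Itga6 were, while the wt arrays overlapped. The sum of the 5 skeletal muscle markers at 24 h was 396 and 669 in homozygous, 683 and 546 in heterozygous and 834 and 507 in wt cells, against 859 and 999, 1077 and 899, and 788 and 2056 in untreated cells of those genotypes. It was lower at 24 h, as Itga8 was, with an overlap in wt cells. The summed intensity of 10 measured macrophage and blood markers was 5635 to 10706 in homozygous cells and 8251 to 15700 in heterozygous cells, against 709 to 5140 in wt cells. The part of these marker differences in the integrin values was not tested. In bulk RNA, fewer cells of a type and less RNA per cell cannot be told apart. The arrays of a wt group differed more from each other, with a root mean square SD over all genes of 0.32 to 0.39 on the log2 scale, than those of a mutant group at 0.18 to 0.22. Whether the 2 arrays of a group stand for different embryos or dishes is not on the labels, and the p-values therefore cover array-to-array spread that may be technical.

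Itga5 and Itgb3 rose at 4 h in cells of all 3 genotypes, Itga5 was still raised at 24 h, and Itga8 fell at 24 h, while Itgb5 did not pass the test in any comparison. With limma and Benjamini-Hochberg adjustment over all 10078 genes, 2 of the 8 subunits rose and 1 fell at 4 h in homozygous cells, where 37.7% of all genes passed (20.1% higher and 17.5% lower). In heterozygous cells at 4 h 2 subunits rose and 0 fell, beside 28.8% of all genes (15.7% higher and 13.2% lower). In wt cells at 4 h 2 rose and 0 fell, beside 20.9% (9.49% higher and 11.4% lower). At 4 h the shares of these 8 subunits that passed were thus near those of all genes. At 24 h, 1 rose and 1 fell in homozygous cells, beside 8.6% of all genes (3.1% higher and 5.51% lower). At the same time 2 rose and 1 fell in heterozygous cells, beside 7.06% (2.95% higher and 4.12% lower), and 2 rose and 1 fell in wt cells, beside 11.7% (4.51% higher and 7.14% lower). At 24 h 2 or 3 of the 8 subunits thus passed, and they were Itga5, Itga8 and, outside homozygous cells, Itgb3. The median log2 change of the 8 subunits at 4 h was -0.14 in homozygous cells, -0.06 in heterozygous cells and -0.02 in wt cells, against 0.03, 0.02 and -0.03 over all genes in those genotypes. Array weights, or the spread of the groups compared alone, left the estimates the same. In wt cells 1 subunit (Itga5) then passed at 4 h and 0 at 24 h. The 2 arrays of a group had equal weights, from 0.284 for wt cells at 4 h to 2.349 for untreated homozygous cells. These weights thus follow the spread of a group and do not grade single arrays.

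**Figure D1:**
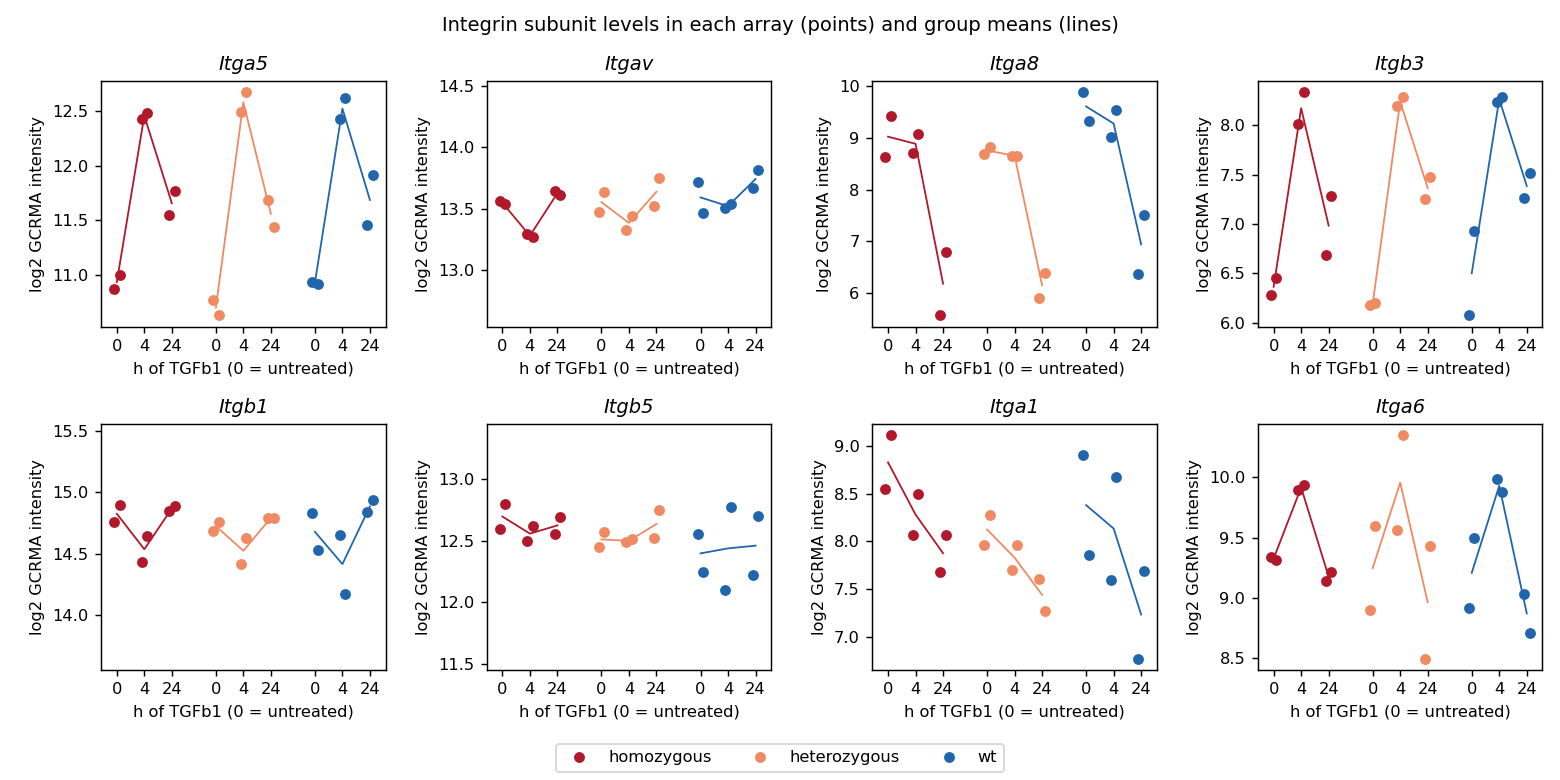
Log2 GCRMA intensity of the brightest probe set of each of the 8 integrin subunits (y axis) in every array (points), by genotype and hours of TGFb1 (x axis, 0 being untreated), with lines joining the group means. Itga5 and Itgb3 peak at 4 h in all 3 genotypes, Itga8 is low only in the 24 h arrays, and Itgb5, Itgav and Itgb1 stay within 1 unit of log2 over all arrays.

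Among the RGD-binding alpha chains, Itga5 encodes the alpha chain of the main fibronectin receptor. Its promoter window is shown because Itga5 rose at both times in all 3 genotypes, and that of Itga8 because it fell at 24 h in all 3. RefSeq gives a window for 7 of the 9 genes (Itgb3 and Itga6 are the others), with 250 bases before and 50 after the annotated start, on GRCm38.p6. The Itga5 window lies on the minus strand at chr15:103366742-103367041 and the Itga8 window on the minus strand at chr2:12301895-12302194. Capitals mark matches, on either strand, to CAGAC (the SMAD-type motif) and CCGCCC (the GC box), and TGANTCA (AP-1) and GGAATG (TEAD) were searched as well.
Itga5: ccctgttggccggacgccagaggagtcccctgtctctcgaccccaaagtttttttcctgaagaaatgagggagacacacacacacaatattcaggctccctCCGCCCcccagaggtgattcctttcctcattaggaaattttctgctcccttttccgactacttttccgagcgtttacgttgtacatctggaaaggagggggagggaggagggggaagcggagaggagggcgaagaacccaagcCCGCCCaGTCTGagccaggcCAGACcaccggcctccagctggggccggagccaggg
Itga8: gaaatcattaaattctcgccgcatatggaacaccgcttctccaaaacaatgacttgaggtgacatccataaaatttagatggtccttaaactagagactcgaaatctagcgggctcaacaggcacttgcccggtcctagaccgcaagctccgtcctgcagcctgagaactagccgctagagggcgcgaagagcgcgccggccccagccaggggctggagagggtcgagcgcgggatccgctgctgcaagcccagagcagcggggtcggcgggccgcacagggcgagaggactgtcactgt
The Itga5 window holds CCGCCC starting 149 and 6 bases before the annotated first base, the reverse complement of the SMAD-type motif starting 1 base after it, and that motif itself starting 14 bases after it. None of the matches overlap, and TGANTCA and GGAATG are not in this window. The Itga8 window holds none of the 4 motifs. Of 32851 windows of this length, 49.6% hold CAGAC, 35.7% CCGCCC, 14.7% GGAATG and 7.81% TGANTCA, so the matches in the Itga5 window are common ones.

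On the brightest Itga5 probe set, 1423267_s_at, homozygous cells had log2 levels of 10.87 and 11.00 untreated, 12.43 and 12.49 at 4 h, and 11.55 and 11.77 at 24 h. Heterozygous cells had 10.77 and 10.63 untreated, 12.49 and 12.68 at 4 h, and 11.68 and 11.44 at 24 h. Wt cells had 10.94 and 10.92 untreated, 12.43 and 12.62 at 4 h, and 11.46 and 11.91 at 24 h. The arrays thus formed 3 bands that did not overlap, with all 4 h arrays highest, all 24 h arrays next and all untreated arrays lowest, whatever the genotype. Within a band the genotypes overlapped, except that the 2 untreated heterozygous arrays lay under the other untreated arrays.

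The rise of Itga5 at 4 h was 1.53 ± 0.14 on the log2 scale in homozygous cells (estimate ± SE, 2.88-fold, limma adjusted p = 1.34e-05), 1.88 ± 0.14 in heterozygous cells (3.69-fold, adjusted p = 4.31e-06) and 1.60 ± 0.14 in wt cells (3.02-fold, adjusted p = 2.06e-05). At 24 h it was smaller, at 0.72 (adjusted p = 0.00588), 0.86 (adjusted p = 0.00239) and 0.76 (adjusted p = 0.00406) in homozygous, heterozygous and wt cells. Itga5 was lower at 24 h than at 4 h by this probe set in all 3 genotypes, with differences of -0.80, -1.02 and -0.84 in homozygous, heterozygous and wt cells. With all kept probe sets averaged, the 24 h changes were 0.52, 0.53 and 0.47 in those genotypes and none passed (adjusted p = 0.141, 0.158 and 0.149). This average takes in 1457561_at and 1458996_at, which were under the dim level in every untreated and 24 h array. In homozygous cells the 24 h value was 0.66 (adjusted p = 0.0699) without untreated replicate 1 and 0.61 (adjusted p = 0.0763) without 24 h replicate 2.

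A pair of the other Itga5 probe sets gave the rise at 4 h as well, and 1 of these the decline after it. On 1423268_at the 4 h changes were 1.13, 1.55 and 1.28 in homozygous, heterozygous and wt cells, all past the threshold. Its 24 h changes against untreated cells were 0.94 (adjusted p = 0.0628), 1.02 (adjusted p = 0.0489) and 1.01 (adjusted p = 0.0363), so the homozygous one did not pass. Its level at 24 h differed from that at 4 h by -0.19 (adjusted p = 0.619), -0.53 (adjusted p = 0.165) and -0.27 (adjusted p = 0.473), so the decline did not pass there. The ending of 1423267_s_at marks probes that may also match related transcripts, and the 2 probe sets disagree on this point. On 1457561_at both arrays of each untreated and each 24 h group lay under the dim level, so no rise could be read at 24 h, and the 4 h arrays at 5.80 to 6.42. The 4 h level of that probe set was at least 2.27-fold higher than untreated in homozygous cells and at least 2.16-fold higher in heterozygous and in wt cells, where the bound takes the dim level as the untreated value. The same bounds hold for the 4 h level over the 24 h level, and the decline passed on this probe set. However, 1457561_at was kept only through its 4 h arrays, so the filter favours both its rise and its decline. It is not separate support for either. The remaining probe set, 1458996_at, was near the dim level and passed in no comparison.

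Itgav encodes the alpha v chain, the partner of beta 3 and beta 5. Its brightest probe set, 1452784_at, stayed between 13.27 and 13.81 in all 18 arrays. In homozygous cells it had 13.29 and 13.27 at 4 h, against 13.56 and 13.53 in untreated cells, a change of -0.27 ± 0.10 (adjusted p = 0.0421). The change was -0.17 in heterozygous cells (adjusted p = 0.203) and -0.07 in wt cells (adjusted p = 0.633). The homozygous call was at the edge of the threshold, since leaving out any of the 4 arrays gave -0.28 to -0.25 with adjusted p of 0.12 to 0.155, and it did not pass with equal array medians either. At 24 h Itgav was above its 4 h level by 0.35 in homozygous cells (adjusted p = 0.0132) and by 0.25 (adjusted p = 0.0576) and 0.22 (adjusted p = 0.0895) in heterozygous and wt cells. Without any single array of these 2 homozygous groups that difference was 0.33 to 0.37 with adjusted p of 0.0531 to 0.0748.

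The dimmer Itgav probe sets moved further in the same direction. On 1421198_at homozygous cells had 9.64 and 9.87 at 4 h, against 11.15 and 11.22 in untreated cells, a change of -1.43 ± 0.38 (adjusted p = 0.0114 over all kept probe sets). The same probe set was higher at 24 h than at 4 h by 1.59 in homozygous cells (adjusted p = 0.00716), 1.07 in heterozygous cells (adjusted p = 0.0499) and 1.61 in wt cells (adjusted p = 0.00745). On 1432296_a_at the 4 h change in homozygous cells was -1.76 ± 0.60 (adjusted p = 0.0386). On that probe set the 2 untreated wt arrays stood far apart, at 7.28 and 4.92. The size of the dip in Itgav therefore differed between its probe sets by more than their standard errors, and the 2 other Itgav probe sets stayed under the dim level in every array.

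Itga8 encodes the alpha 8 chain, which pairs with beta 1 and binds nephronectin, fibronectin and tenascin-C. It fell at 24 h in all 3 genotypes and did not pass at 4 h. On 1454966_at homozygous cells had 8.63 and 9.42 untreated, 8.70 and 9.07 at 4 h, and 5.57 and 6.80 at 24 h. Heterozygous cells had 8.69 and 8.83 untreated, 8.66 and 8.65 at 4 h, and 5.91 and 6.39 at 24 h. Wt cells had 9.89 and 9.33 untreated, 9.02 and 9.54 at 4 h, and 6.37 and 7.51 at 24 h. Every 24 h array lay below every other array, and the 3 groups at 24 h were not separated from each other. At 4 h the arrays overlapped those of untreated cells in homozygous and wt cells.

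The 24 h change of Itga8 was -2.84 ± 0.42 in homozygous cells (7.18-fold lower, adjusted p = 0.00104), -2.61 ± 0.42 in heterozygous cells (6.11-fold lower, adjusted p = 0.00218) and -2.67 ± 0.42 in wt cells (6.36-fold lower, adjusted p = 0.00147). At 4 h the change was -0.14, -0.10 and -0.33 in those genotypes, with adjusted p of 0.829, 0.887 and 0.616. The dimmer probe set 1427489_at fell at 24 h too, by at least 2.84-fold in homozygous cells and at least 1.52-fold in heterozygous cells, with both 24 h arrays of each under the dim level. In wt cells it passed as well (adjusted p = 0.0279), but 1 of the 2 arrays at 24 h was under the dim level, so the size of -2.18 rests partly on a value near background.

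Itgb3 encodes the beta 3 chain, which joins alpha v to form the vitronectin receptor. On 1455257_at homozygous cells had 6.28 and 6.45 untreated, 8.01 and 8.34 at 4 h, and 6.69 and 7.28 at 24 h. Heterozygous cells had 6.18 and 6.20 untreated, 8.20 and 8.28 at 4 h, and 7.25 and 7.47 at 24 h. Wt cells had 6.08 and 6.93 untreated, 8.24 and 8.29 at 4 h, and 7.26 and 7.51 at 24 h. All 4 h arrays lay above all others, while 1 homozygous 24 h array, at 6.69, lay below 1 untreated wt array, at 6.93.

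At 4 h Itgb3 rose by 1.81 ± 0.25 in homozygous cells (3.50-fold, adjusted p = 0.00021), 2.05 ± 0.25 in heterozygous cells (4.14-fold, adjusted p = 0.000124) and 1.76 ± 0.25 in wt cells (3.40-fold, adjusted p = 0.000544). At 24 h the change was 0.62 in homozygous cells (adjusted p = 0.169), where it did not pass, 1.17 in heterozygous cells (adjusted p = 0.0122) and 0.89 in wt cells (adjusted p = 0.0379). That homozygous change passed with array weights (limma adjusted p = 0.014) and, at 0.69, with both probe sets averaged (adjusted p = 0.048). The homozygous response at 24 h differed from the wt response by -0.27 (95% interval -1.03 to 0.50, adjusted p = 0.944), so the missing call does not separate the genotypes. Itgb3 was lower at 24 h than at 4 h in all 3 genotypes, with differences of -1.19, -0.88 and -0.88 in homozygous, heterozygous and wt cells, each past the threshold. With both probe sets averaged these were -0.53, -0.18 and -0.16, and none passed (adjusted p = 0.0528, 0.506 and 0.557). Both averages of Itgb3 take in 1421511_at, which lay around the dim level. Without single arrays the difference was -0.92 to -0.77 in heterozygous cells and -0.85 and -0.75 in wt cells where it did not pass, which was without either 4 h array or 24 h replicate 1 in heterozygous cells, and without 4 h replicate 2 or 24 h replicate 1 in wt cells.

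The 24 h calls of Itgb3 against untreated cells were lost without single arrays. In heterozygous cells the value was 1.06 to 1.28 without any 1 of the 4 arrays (adjusted p = 0.0527 to 0.0976), and in wt cells it was 0.46 without untreated replicate 1 (adjusted p = 0.185), 1.01 without 24 h replicate 1 (adjusted p = 0.073) and 0.76 without 24 h replicate 2 (adjusted p = 0.205). The second probe set of Itgb3, 1421511_at, stayed within 3.24 to 5.49, around the dim level. It passed only at 24 h in wt cells (adjusted p = 0.0261), where all 4 arrays were under the dim level, so no fold is given. At 24 h against 4 h its differences were 0.14, 0.51 and 0.56 in homozygous, heterozygous and wt cells, in the other direction from 1455257_at, and did not pass (adjusted p = 0.786, 0.268 and 0.213).

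The remaining beta chains did not pass against untreated cells in any genotype. Itgb1, the shared partner of most alpha chains here, stayed between 14.18 and 14.94 on 1426918_at. Its 4 h changes were -0.29 in homozygous cells, -0.20 in heterozygous cells and -0.26 in wt cells, with adjusted p of 0.117, 0.293 and 0.192. The homozygous one passed with array weights (limma adjusted p = 0.00562) or with the spread of the groups compared alone (adjusted p = 0.0351). In wt cells Itgb1 was higher at 24 h than at 4 h by 0.47 (adjusted p = 0.0195), a difference that was 0.23 (adjusted p = 0.211) without 4 h replicate 2, the lowest array at 14.18, and 0.42 (adjusted p = 0.103) without 24 h replicate 2. Itgb5, the other partner of alpha v, stayed between 12.10 and 12.80 on 1456195_x_at, and its largest change with TGFb1 was -0.14 (adjusted p = 0.613) at 4 h in homozygous cells. The 95% interval of that change was -0.56 to 0.29, and none of the 4 Itgb5 probe sets passed in any comparison, although 1417534_at and 1417533_a_at had estimates of -0.46 and -0.41 (adjusted p = 0.0634 and 0.11) at 4 h in homozygous cells. The F test over the 9 groups, which 53.5% of all genes passed, gave an adjusted p of 0.844 for Itgb5 and 0.069 for Itgb1.

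The collagen receptor chain Itga1 had its highest mean in untreated cells of each genotype. On 1455251_at homozygous cells had 8.55 and 9.11 untreated, 8.06 and 8.50 at 4 h, and 7.68 and 8.07 at 24 h. Heterozygous cells had 7.97 and 8.28, 7.70 and 7.96, and 7.60 and 7.27 at the same times, and wt cells 8.90 and 7.86, 7.60 and 8.67, and 6.77 and 7.69. The group means stepped down with time in every genotype, and the arrays of neighbouring times overlapped at 3 of the 6 steps, which were both steps of wt cells and the later step of homozygous cells. The arrays at 24 h lay below those of untreated cells in each genotype. The 24 h changes were -0.95 in homozygous cells (adjusted p = 0.196), -0.69 in heterozygous cells (adjusted p = 0.445) and -1.15 in wt cells (adjusted p = 0.0905), so Itga1 did not pass. In homozygous cells it passed with array weights (adjusted p = 0.0108), and in wt cells it was -1.67 (adjusted p = 0.0428) without untreated replicate 2. The 95% intervals of the 3 changes ran from -1.84 to -0.07, from -1.57 to 0.20 and from -2.03 to -0.27. The second Itga1 probe set, 1439713_at, reached the dim level in 1 array only, at 5.29.

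Itga6 encodes the laminin-binding alpha 6 chain. On 1422445_at homozygous cells had 9.34 and 9.31 untreated, 9.90 and 9.93 at 4 h, and 9.14 and 9.21 at 24 h. Heterozygous cells had 8.90 and 9.60, 9.57 and 10.35, and 8.50 and 9.43 at those times, and wt cells 8.92 and 9.50, 9.98 and 9.88, and 9.04 and 8.71. The means were highest at 4 h in every genotype. The 4 h changes of 0.59, 0.71 and 0.72 in homozygous, heterozygous and wt cells did not pass (adjusted p = 0.165, 0.112 and 0.123). In homozygous cells the 4 h change passed with array weights (adjusted p = 0.0479) or with the spread of the groups compared alone (adjusted p = 0.00184). The step down from 4 h to 24 h passed in heterozygous cells (-0.99, adjusted p = 0.0309) and wt cells (-1.06, adjusted p = 0.022) and not in homozygous cells (-0.74, adjusted p = 0.0858). In heterozygous cells it was -0.60 without 4 h replicate 2 and -0.53 without 24 h replicate 1, in wt cells it was -1.0 and -1.11 without 4 h replicate 1 or 2 and -0.90 without 24 h replicate 2, and none of these 5 values passed. The second probe set, 1422444_at, passed nowhere, with differences of -0.26, -0.46 and -0.42 between the times.

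**Figure D2:**
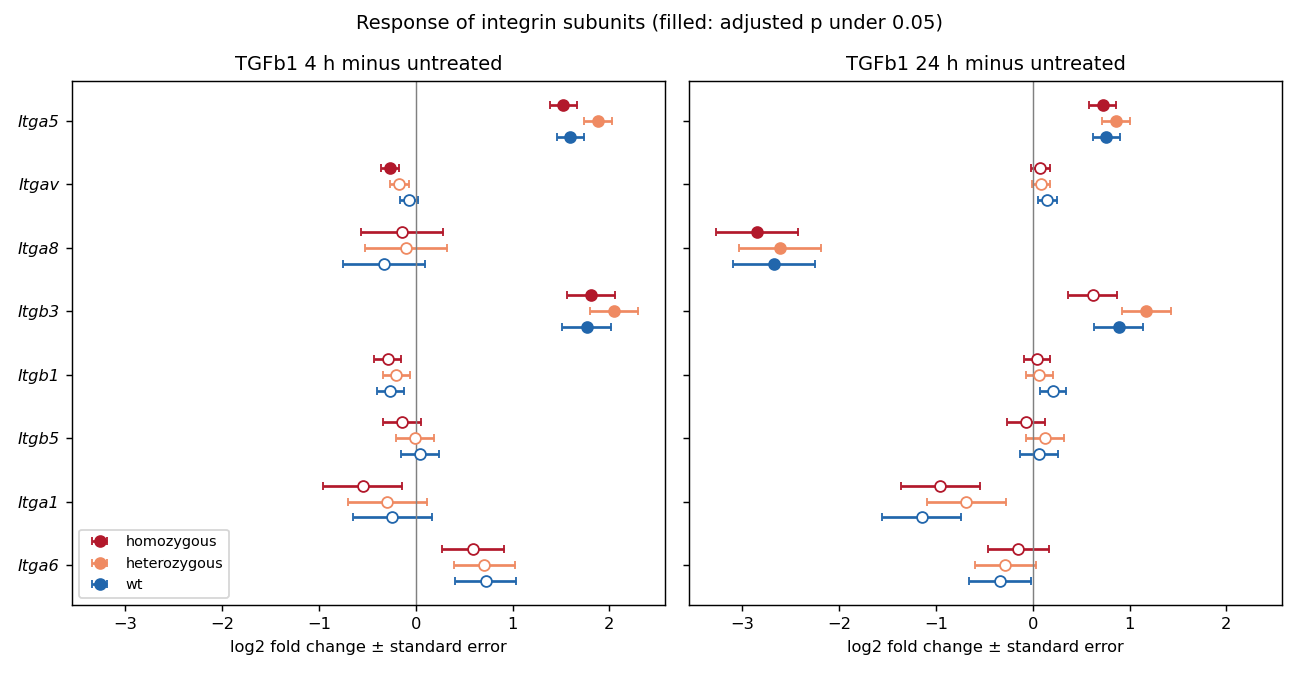
Log2 change with TGFb1 (x axis, TGFb1 minus untreated, points with standard error bars) for each measured integrin subunit (y axis) in homozygous, heterozygous and wt cells at 4 h (left) and 24 h (right), filled where the limma adjusted p was under 0.05. At 4 h the filled points are Itga5 and Itgb3 in all genotypes and Itgav in homozygous cells, and at 24 h they are Itga5 and Itga8 in all genotypes and Itgb3 in heterozygous and wt cells.

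Between the 2 times of treatment more subunits declined than rose by their brightest probe sets. At 24 h against 4 h, 1 subunit was higher and 3 lower in homozygous cells, beside 36.9% of all genes (14.9% higher and 22.0% lower). In heterozygous cells 0 were higher and 4 lower (1 and 4 with quantile normalization), beside 32.2% (14.9% higher and 17.3% lower), and in wt cells 1 was higher and 4 lower, beside 34.3% (15.1% higher and 19.2% lower). Itga5, Itgb3 and Itga8 were lower in all 3 genotypes and Itga6 in heterozygous and wt cells, while Itgav in homozygous cells and Itgb1 in wt cells were the higher ones. With the spread taken from the groups compared alone 0 of the 5 wt calls passed, and with array weights 1 did. With the probe sets of a gene averaged, Itgb3 was not called in any genotype, nor Itga6 in heterozygous and wt cells. Itgav then passed as higher in wt cells (1.49, limma adjusted p = 0.00542) and Itgb1 in homozygous cells (0.41, adjusted p = 0.0236). The median difference of the 8 subunits was -0.57 in homozygous cells, -0.63 in heterozygous cells and -0.86 in wt cells, against -0.07, -0.03 and -0.04 over all genes.

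Probe sets of one gene share their target and are not replicates. Those kept only through 4 h arrays were 1457561_at and 1458996_at, and 1421511_at was kept only through treated arrays. Of these, 1457561_at is among the higher ones at 4 h in each genotype, and 1421511_at among those at 24 h in wt cells. The filter favours these calls. Of the 23 kept probe sets, 4 were higher and 3 lower at 4 h in homozygous cells, where 35.0% of all kept probe sets passed (17.4% higher and 17.6% lower). The numbers were 4 higher and 0 lower in heterozygous cells, beside 26.5% (13.8% higher and 12.7% lower), and 4 higher and 0 lower in wt cells, beside 17.1% (7.64% higher and 9.48% lower). The 3 lower ones at 4 h in homozygous cells were the 3 kept Itgav probe sets. At 24 h 1 was higher and 2 lower in homozygous cells, beside 6.44% (2.25% higher and 4.18% lower). At that time 3 were higher and 2 lower in heterozygous cells, beside 5.07% (2.24% higher and 2.84% lower), and 4 higher and 2 lower in wt cells, beside 9.14% (4.11% higher and 5.03% lower). The 2 lower ones at 24 h were those of Itga8 in each genotype.

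The same counts over probe sets were made between the times. At 24 h against 4 h, 4 probe sets were higher and 5 lower in homozygous cells, beside 33.3% of all kept probe sets (14.4% higher and 18.9% lower). In heterozygous cells 1 was higher and 6 lower, beside 29.1% (14.1% higher and 15.0% lower), and in wt cells 6 were higher and 5 lower, beside 32.5% (16.7% higher and 15.7% lower). All of the higher ones belonged to Itgav and Itgb1, and all of the lower ones to Itga5, Itgb3, Itga8 and Itga6. The lower ones include 1457561_at in each genotype, which was kept only through its 4 h arrays. Of the 5 kept Itgb1 probe sets 4 were higher in wt cells, for example 1452545_a_at by 0.57 ± 0.15 (adjusted p = 0.0146), and 1 in homozygous cells, the same 1452545_a_at by 0.44 (adjusted p = 0.0437). The Itgav probe set 1432296_a_at was higher at 24 h than at 4 h by 2.14 ± 0.60 in homozygous cells (adjusted p = 0.0172) and 2.65 ± 0.60 in wt cells (adjusted p = 0.00655).

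**Figure D3:**
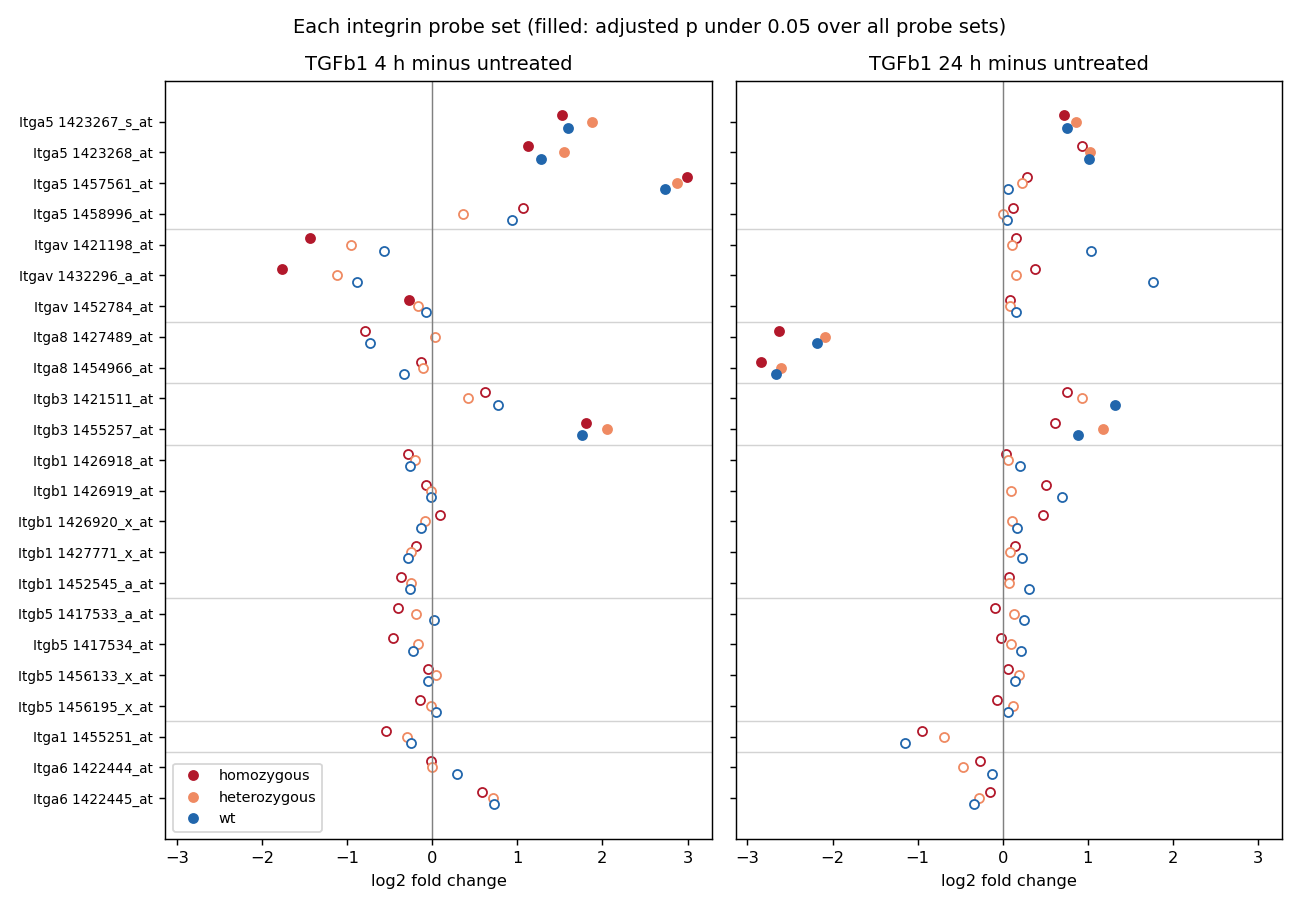
Log2 change with TGFb1 (x axis, TGFb1 minus untreated) of each of the 23 kept integrin probe sets (y axis, grouped by gene) in homozygous, heterozygous and wt cells at 4 h (left) and 24 h (right), filled where the limma adjusted p over all kept probe sets was under 0.05. Both Itga8 probe sets lie under -2 at 24 h in every genotype, whereas the 3 Itgav probe sets at 4 h in homozygous cells spread between -1.76 and -0.27. Sizes for 1457561_at, 1458996_at, 1421511_at, 1427489_at and 1432296_a_at rest partly on arrays under the dim level.

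Untreated mutant cells gave no call on these subunits. In untreated cells 0 of the 8 differed between homozygous and wt cells, beside 1.77% of all genes, and 0 between heterozygous and wt cells, beside 0.923%, with limma. At an unadjusted p under 0.05 the number was 0 of 8 as well, whereas 18% and 9.72% of all genes reached that level. Between homozygous and heterozygous cells 0 of the 8 and 0.0% of all genes passed. Itga8 had the largest estimate, with 8.69 and 8.83 in untreated heterozygous cells, against 9.89 and 9.33 in untreated wt cells, a difference of -0.85 (95% interval -1.77 to 0.07, adjusted p = 0.547). For Itga5 the homozygous minus wt difference was 0.01 (95% interval -0.30 to 0.31). The macrophage and blood marker sums given above were higher in mutant than in wt cells, and their part in these comparisons was not tested.

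No difference between a mutant response and the wt response passed for any of the 8 subunits at either time. This limma test of the difference gave 0 calls over all 10078 genes too (0.0%), and 0 of the 8 subunits reached an unadjusted p under 0.05, against 3.09% to 8.4% of all genes. For Itga5 at 4 h the homozygous response differed from the wt response by -0.07 (95% interval -0.50 to 0.36), and the heterozygous response by 0.29 (95% interval -0.15 to 0.72). For Itga8 at 24 h those differences were -0.17 (95% interval -1.47 to 1.12) and 0.06 (95% interval -1.24 to 1.36). The Itga8 intervals thus hold differences of 1 unit of log2 in either direction, and those of Itga5 do not.

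Among all measured genes, those whose levels followed a subunit most closely over the 18 arrays were named for the 3 subunits with the widest range of group means. For Itga8 they were Dmpk (Pearson r = 0.964), Ccn3 (r = 0.958) and Cpa6 (r = 0.958). For Itgb3 they were Ube2f (r = 0.959), Dusp4 (r = 0.956) and Lce1f (r = 0.951), and for Itga5 Lce1f (r = 0.976), Ube2f (r = 0.976) and Inhba (r = 0.971). Dusp4 encodes a MAP kinase phosphatase, Inhba the beta A chain of activin, and Ccn3 a matricellular protein. The points share the TGFb1 treatment and the normalization, so these values are a description.

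Other genes of integrin adhesion were described by 6 lists. Of 126 calls of genes that could be named from them, 6 missed the threshold and 0 changed direction under quantile normalization or equal array medians. Of 17 further integrin subunits 7 were measured. Itga4, the alpha 4 chain that binds fibronectin and VCAM-1, fell at 4 h, with changes of -0.86 ± 0.20 in homozygous cells (adjusted p = 0.00608), -0.98 ± 0.20 in heterozygous cells (adjusted p = 0.00374) and -1.30 ± 0.20 in wt cells (adjusted p = 0.00103). Itgb8, a beta chain that pairs with alpha v and is known for activating TGF-beta, had 3.65 and 4.28 at 4 h, against 5.89 and 6.11 in untreated homozygous cells, which is at least 2.00-fold lower. In heterozygous cells Itgb8 was at least 1.97-fold lower at 4 h. In wt cells its change was -1.09 (adjusted p = 0.0221), with 3 of the 4 arrays under the dim level. Itgb8 reached the dim level in 5 arrays only, all of untreated cells. The filter thus favours its fall and the counts below that hold it. Over the list 0 rose and 2 of 7 fell at 4 h in each genotype, beside 17.5%, 13.2% and 11.4% of all genes lower in homozygous, heterozygous and wt cells. The median changes at 4 h were -0.06, 0.02 and 0.03, against 0.03, 0.02 and -0.03 over all genes. At 24 h Itga4 was still lower in homozygous (-0.81, adjusted p = 0.0259) and wt cells (-0.99, adjusted p = 0.00765), with limma. Itgb8 was then at least 2.00-fold lower in homozygous and at least 1.97-fold lower in heterozygous cells. In total 2, 1 and 1 fell at 24 h in homozygous, heterozygous and wt cells, beside 5.51%, 4.12% and 7.14% of all genes. The number that rose was 0 (1 in homozygous cells with quantile normalization or equal array medians).

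Of 3 measured leukocyte subunits, Itgal passed in both untreated mutants and Itgam in untreated heterozygous cells, against wt. Itgb2 passed in neither, although it had 5.82 and 6.10 in untreated homozygous and 6.77 and 6.36 in untreated heterozygous cells. Its untreated wt arrays stood at 4.39 and 2.95, apart from each other and under the dim level. Itgam did not pass in homozygous cells, with 5.14 and 5.27 untreated. Itgal, the alpha L chain of lymphocytes and myeloid cells, had 6.25 and 5.75 in untreated homozygous cells and 7.35 and 6.45 in untreated heterozygous cells, against 4.59 and 4.88 in untreated wt cells. It was thus at least 1.99-fold higher in homozygous cells (adjusted p = 0.0422) and at least 3.73-fold higher in heterozygous cells (adjusted p = 0.00204). Itgam, the alpha M chain of macrophages, had 5.92 and 6.40 in untreated heterozygous cells, against 3.84 and 3.82 in wt cells, at least 2.24-fold higher (adjusted p = 0.0135). Itgam and Itgb2 reached the dim level in mutant arrays only, and Itgal in those and in wt 24 h replicate 2 (5.23). All 3 genes were thus measured only through the mutant groups where they are high, which favours these calls. The macrophage and blood marker sum of untreated cells was 7846 and 8305 in homozygous cells and 13524 and 10663 in heterozygous cells, against 3001 and 1218 in wt cells, and its part in the Itgal and Itgam values was not tested.

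In the lists that follow, the shares of all genes were, at 4 h, 20.1% higher and 17.5% lower in homozygous, 15.7% and 13.2% in heterozygous, and 9.49% and 11.4% in wt cells. At 24 h they were 3.1% and 5.51%, 2.95% and 4.12%, and 4.51% and 7.14%.

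On the inner side of the membrane, 38 of 42 adaptors and kinases were measured. At 4 h 3 rose and 11 fell in homozygous cells, 4 rose and 5 fell in heterozygous cells, and 4 rose and 1 fell in wt cells. The shares that rose were thus near or below those of all genes. The heterozygous numbers were 6 and 5 with equal array medians, and the wt numbers 6 and 1 with these and 4 and 2 with quantile normalization. Pxn, the focal adhesion scaffold paxillin, rose at 4 h by 0.99 ± 0.13 in heterozygous cells (adjusted p = 0.000184) and 0.73 ± 0.13 in wt cells (adjusted p = 0.0021). Its change at 4 h in homozygous cells is not given, as Pxn was not among the 3 genes that could be named there. In homozygous cells Pxn had 11.35 and 11.18 at 4 h, and its difference at 24 h against 4 h was -0.78 (limma adjusted p = 0.000717). Ptk2b, a kinase related to focal adhesion kinase, rose at 4 h by 1.33, 1.57 and 1.33 in homozygous, heterozygous and wt cells (SE 0.42 each, adjusted p = 0.0242, 0.0138 and 0.0394). Dab2, an endocytic adaptor of integrins, fell at both times, with changes of -1.16, -0.95 and -1.20 at 4 h and -0.98, -0.77 and -0.73 at 24 h in those genotypes. Tln2, a talin that activates integrins through the beta tail, rose at 24 h by 0.68, 0.75 and 0.64. At 24 h 1 rose and 2 fell in homozygous cells, 1 rose and 2 fell in heterozygous cells, and 3 rose and 1 fell in wt cells (5 and 1 with equal array medians). The list medians lay between -0.06 and 0.07 in these 6 comparisons, near those of all genes.

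Of 17 RGD-type and fibronectin ligands 14 were measured. Tgfb1, whose latent form carries an RGD motif, rose at 4 h by 1.18, 1.39 and 1.35 and at 24 h by 1.13, 1.23 and 1.13 in homozygous, heterozygous and wt cells, with an SE of 0.10 each. Fbn2, the microfibril protein fibrillin 2, fell at 24 h, with changes of -1.75 ± 0.19 in homozygous cells (adjusted p = 0.000109), -0.98 ± 0.19 in heterozygous cells (adjusted p = 0.00734) and -1.07 ± 0.19 in wt cells (adjusted p = 0.00311). Tnc, tenascin-C and a ligand of alpha 8, rose at 24 h in wt cells by 0.64 (adjusted p = 0.0155). Fn1 itself, the ligand of the alpha 5 chain, was higher at 24 h than at 4 h by 0.28 in heterozygous cells and 0.37 in wt cells (SE 0.06 each). Its difference in homozygous cells is not given, as Fn1 was not among the 3 genes that could be named there. In the untreated state Tgfb1 was higher by 0.64 in homozygous than in wt cells (adjusted p = 0.0123). At 4 h 3 of these ligands rose and 3 fell in homozygous cells (2 and 5 with quantile normalization), 2 rose and 2 fell in heterozygous cells, and 2 rose and 0 fell in wt cells (2 and 1 with quantile normalization). The homozygous numbers are near the 20.1% higher and 17.5% lower of all genes.

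All 10 collagens listed as ligands were measured, and 0 rose with TGFb1 at either time. Col1a1, the alpha 1 chain of type I collagen, fell at 4 h, with changes of -0.61 ± 0.11 in homozygous cells (adjusted p = 0.00107), -0.38 ± 0.11 in heterozygous cells (adjusted p = 0.0205) and -0.42 ± 0.11 in wt cells (adjusted p = 0.0181). Col1a1 was above its 4 h level again at 24 h, by 0.58, 0.45 and 0.74. The type VI collagen chain Col6a2 fell at 24 h, with changes of -1.44, -1.42 and -1.39 in homozygous, heterozygous and wt cells (SE 0.25 each). In total 6, 2 and 1 of the 10 fell at 4 h in homozygous, heterozygous and wt cells, beside 17.5%, 13.2% and 11.4% of all genes, and 2 fell at 24 h in each genotype. With equal array medians the numbers at 4 h were 4 in homozygous and 1 in heterozygous cells, and 1 fell at 24 h in wt cells. Col1a1 and Col3a1 are also among the fibroblast markers whose sum was lowest at 4 h.

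Of 11 laminin chains 7 were measured, and 0 rose against untreated cells. Lama5, the alpha chain of laminins that alpha 6 binds, fell at 24 h, with changes of -1.11 in homozygous cells (adjusted p = 0.00658), -0.79 in heterozygous cells (adjusted p = 0.0483) and -1.02 in wt cells (adjusted p = 0.0101). At 4 h 3 of the 7 fell in homozygous cells, 0 in heterozygous cells and 0 in wt cells, beside 17.5%, 13.2% and 11.4% of all genes (1 in heterozygous and 1 in wt cells with quantile normalization). At 24 h 3 fell in homozygous cells, 1 in heterozygous cells and 1 in wt cells (2 in wt cells with either scaling), beside 5.51%, 4.12% and 7.14%, and the 24 h list medians were -0.78, -0.43 and -0.56, against -0.02, 0.01 and -0.06 over all genes.

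Of 16 membrane partners of integrins 15 were measured. Plaur, the urokinase receptor that associates with integrins, rose at 4 h by 2.07 ± 0.20 in homozygous cells (adjusted p = 1.48e-05), 1.86 ± 0.20 in heterozygous cells (adjusted p = 3.88e-05) and 1.48 ± 0.20 in wt cells (adjusted p = 0.000314). Cav1, the coat protein of caveolae, fell at 24 h, with changes of -1.23, -1.50 and -1.32, and the tetraspanin Cd9 fell too, with changes of -0.76, -0.68 and -0.78 in those genotypes. At 4 h 4 rose and 2 fell in homozygous cells, 3 rose and 1 fell in heterozygous cells (3 and 2 with quantile normalization), and 1 rose and 0 fell in wt cells (3 and 0 with equal array medians). At 4 h the shares that rose in homozygous and heterozygous cells stood beside 20.1% and 15.7% of all genes, and those that fell beside 17.5% and 13.2%. At 24 h 1, 0 and 0 rose and 3, 3 and 5 fell in homozygous, heterozygous and wt cells. None of the genes of these 6 lists was tested for a relation to the integrin subunits, and the comparisons share the untreated arrays.

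**Figure D4:**
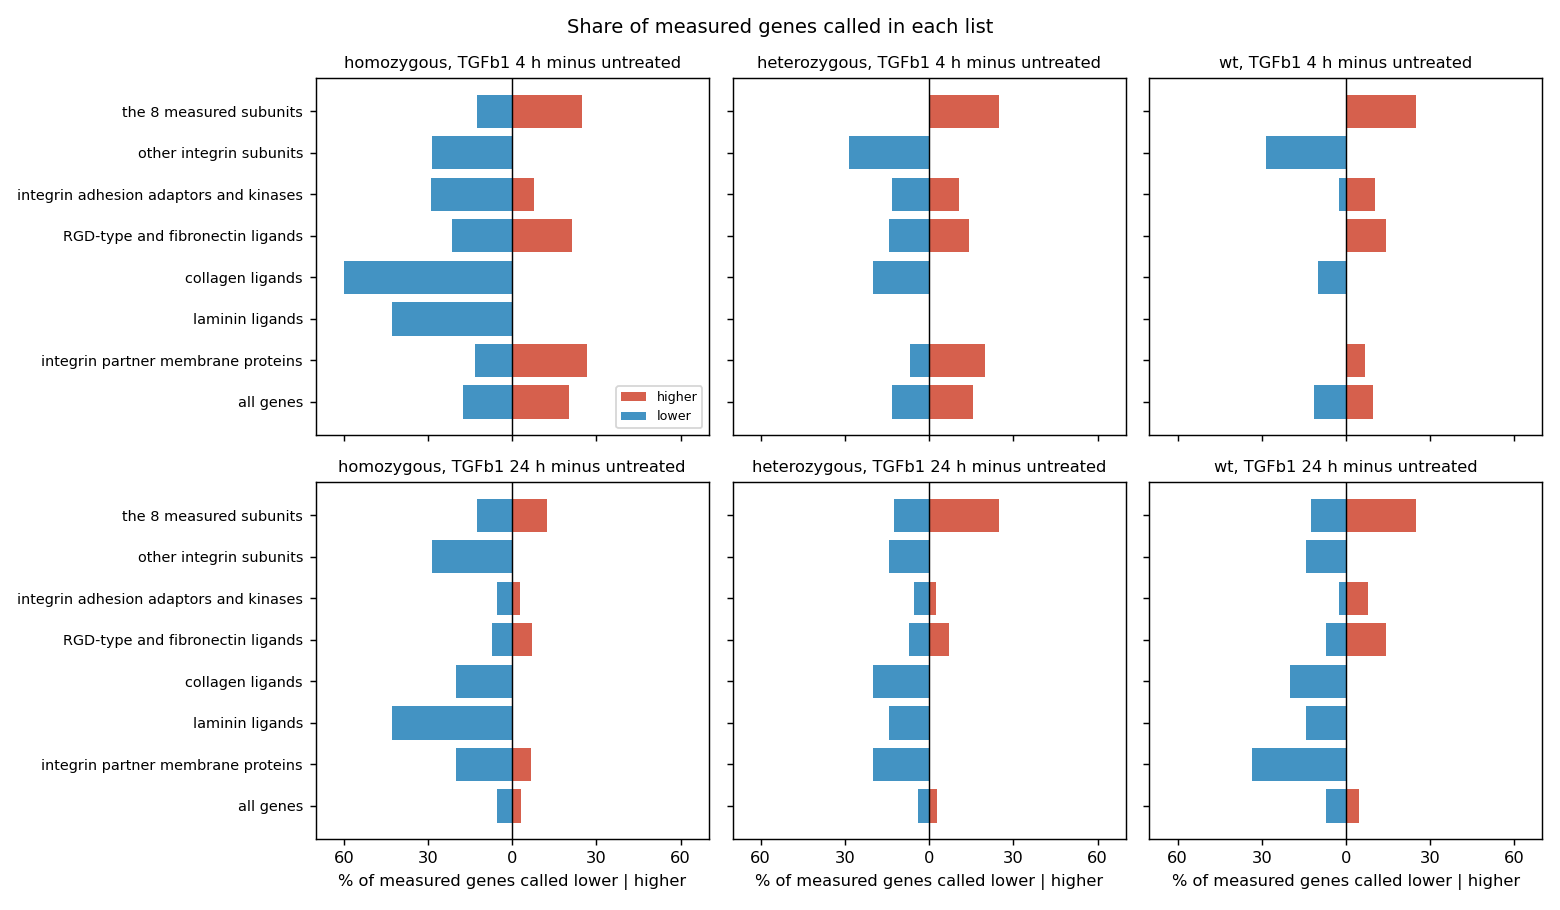
Share of measured genes that rose (right, red) or fell (left, blue) with TGFb1 against untreated cells, in percent of each list (x axis), for the 8 measured subunits, 6 lists of related genes and all genes (y axis), at 4 h (top) and 24 h (bottom) in homozygous, heterozygous and wt cells. The longest bars on the falling side are the collagens at 4 h in homozygous cells, where 6 of 10 fell (4 with equal array medians), beside 17.5% of all genes.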

How the data were processed

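The RNA was hybridised to 18 Affymetrix arrays. According to the submitters' processing notes the authors ran GCRMA, which corrects background, normalizes between arrays and gives 1 value a probe set; the deposited values are intensities on a linear scale. No GCRMA version, scan date or batch is given in the sources used here. The probe sets were named from the platform annotation given for the array. The deposited intensities were converted to log2 with no pseudocount. Probe sets with a log2 value of 5 or more on 2 or more arrays were kept (18958 of 45101), and a gene stands for the brightest kept probe set that names it alone. In each array 39.48 to 40.33% of probe sets reached that level, and the number of arrays limits the precision.

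Means of the 9 groups were estimated in 1 model with limma 3.58.1 in R 4.3.3 (9 residual degrees of freedom, eBayes with an intensity trend). Benjamini-Hochberg adjustment of the two-sided p-values ran over the 10078 genes, or over the 18958 kept probe sets, and an adjusted p under 0.05 was called. The comparisons were TGFb1 against untreated at each time, 24 h against 4 h, the genotypes untreated, and mutant against wt responses. A fold is given as a bound, taken from log2 5, for groups with no array at or above that level. The arrays of a group are numbered 1 and 2 on the labels. With only 2 numbers a group these were not taken as pairs.

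All integrin subunits are named. Of each other list at most 3 genes per comparison could be named, those with the largest change among called genes whose arrays do not overlap between the groups. For the 3 subunits with the widest range of group means, the 3 genes with the highest correlation were named. The subunits and lists were chosen with earlier results of these data known. Alternatives covered filters, scaling, probe set choice, weights, the block and single arrays left out. Promoter windows are from RefSeq on GRCm38.p6. Protein sequences were not used here.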

Additional observations from a re-analysis of the deposited data

How the results depend on the processing

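Of 28 calls on single subunits, 9 held in every alternative, among them Itga5 at 4 h in each genotype, Itgb3 at 4 h in both mutants and Itga8 at 24 h in both mutants, and 0 reversed. The 15 calls of TGFb1 against untreated became 12 to 17 without single arrays and 13 to 22 in other alternatives. The 13 calls of 24 h against 4 h became 11 to 14 and 9 to 18. Untreated genotypes (0) and mutant against wt responses (0) stayed at 0 without single arrays. An array left alone in its group is assumed to vary like those of the other groups. The counts without single arrays were, at 4 h, 2 to 4 in homozygous, 2 in heterozygous and 2 to 3 in wt cells, and at 24 h 1 to 2, 2 to 3 and 2 to 4. For 24 h against 4 h they were 3 to 5, 2 to 5 and 2 to 5. The lowest came without untreated replicate 1 or 24 h replicate 2 in homozygous cells (1 in place of 2 at 24 h, Itga5 being lost), and without 4 h replicate 2 in heterozygous and wt cells or 24 h replicate 2 in wt cells (2, 2 and 3 for 24 h against 4 h, in place of 4, 5 and 5).

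With array weights the wt counts were 1 at 4 h, 0 at 24 h and 1 for 24 h against 4 h, in place of 2, 3 and 5, and the homozygous counts were 5 at 4 h and 4 at 24 h, in place of 3 and 2. With only the groups compared in the fit, the wt counts were 1, 0 and 0, and the homozygous count at 4 h was 5. Averaging the probe sets of a gene gave 2 calls in heterozygous cells for 24 h against 4 h, in place of 4. Without probe sets that may match related transcripts, Itga5 at 24 h against 4 h was -0.19 in homozygous cells, -0.53 in heterozygous cells and -0.27 in wt cells, with adjusted p of 0.605, 0.152 and 0.464. The cause of these changes was not tested.

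With the replicate number as a block over all groups, the counts were 15 for TGFb1 against untreated and 13 for 24 h against 4 h, and with a replicate block within each genotype 18 and 16. Under the block within genotype Itga6 at 4 h passed in all 3 genotypes (adjusted p of 0.0268, 0.0154 and 0.0195 in homozygous, heterozygous and wt cells). Same-numbered arrays deviated together within heterozygous and homozygous cells (r of 0.38 to 0.61), while those of untreated wt cells ran against both treated wt groups (r of -0.49 and -0.66). With the untreated wt numbers crossed, an alternative chosen after seeing the data, the counts were 22 and 18, with 5 at 4 h in homozygous cells and 2 between untreated genotypes.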
